A study of Mus musculus with 34 samples.

Results

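The GATA factor family comprises 6 mouse genes, Gata1 to Gata6, and all 6 are measured on this Affymetrix expression array. A probe set was taken as a member where the platform annotation gave it a single gene symbol from Gata1 to Gata6. That rule found 10 probe sets for the 6 genes, among 12422 probe sets and 8251 genes in all. Gata3, Gata4 and Gata5 have 1 probe set each. Gata1 and Gata2 have 2, and Gata6 has 3. Each gene is represented by its brightest probe set (161456_f_at for Gata1, 102789_at for Gata2, 100924_at for Gata3, 102713_at for Gata4, 96500_at for Gata5 and 93925_at for Gata6), and the remaining 4 are described separately. Gata1 lies on chromosome X, Gata2 on chromosome 6, Gata3 and Gata5 on chromosome 2 and Gata4 on chromosome 14.

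The study set mouse germ cells and other pluripotent cells, from embryos or culture, beside somatic cells, and 32 arrays in 10 groups are used here. Animals and lines were C57Bl/6 except for the inner cell mass, and no group carries a labelled mutation or drug treatment. Primordial germ cells (PGC) were sorted as Oct4/GFP positive at E11.5 (sexes mixed, 4 arrays) and at E13.5 from females (3 arrays) and males (3 arrays). The SGM group (4 arrays) is the Oct4/GFP negative somatic fraction from gonad plus mesonephros at E11.5, sexes mixed, so every cell type of that region without the reporter can be in them. Inner cell mass (ICM, E3.5, 3 arrays) was isolated by immunosurgery, which destroys the outer trophectoderm with antibody and complement. ICM replicates 2 and 3 were C57Bl/6 x C3H F1, and the cross of replicate 1 also had CD1 in it. Embryonic stem cells (ESC, 2 arrays, passage 9 to 14) and embryonic germ cells (EGC, derived from E12.5 germ cells, 3 arrays, passage 19) were male and grown with LIF and serum, and the labels do not say how many lines each stands for. Embryonic fibroblasts (MEF, E13.5, passage 2, serum, 6 arrays) and neural stem or precursor cells (NSC, 8-week subventricular zone, neurospheres at passage 1 with EGF, 2 arrays) were cultured. Haematopoietic stem or precursor cells (HSC, 8-week male bone marrow, 2 arrays) were side population cells sorted as Lin-, CD34-, c-Kit+ and Sca-1+. The labels call the replicates biological.

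GATA factors are zinc finger proteins that bind the DNA word GATA and give the family its name. GATA1, GATA2 and GATA3 are best known from blood: GATA2 maintains stem and progenitor cells and mast cells, GATA1 drives red cell and megakaryocyte maturation, and GATA3 directs T cells and, in the blastocyst, the trophectoderm. GATA4, GATA5 and GATA6 are best known from heart, gut and gonad. GATA6 specifies the primitive endoderm within the inner cell mass, and GATA4 acts with it there and is required for the genital ridge. The proteins work with partners such as the FOG cofactors (Zfpm1 and Zfpm2) and, in blood, a complex of TAL1, LMO2 and LDB1.

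The start regions of the members with the widest spread of signal, Gata2 and Gata3, are shown because the array reads the transcript and not its start: Gata2 has starts in the RefSeq table at 2 places, and the signal of a Gata2 probe set cannot be assigned to either. RefSeq start windows (GRCm38.p6) were found for 4 of the 6 genes, Gata1, Gata2, Gata3 and Gata5, and not for Gata4 and Gata6. The 250 bases before each start follow, 5′ to 3′ on the strand of the gene, with every CpG dinucleotide in capitals.
Gata2, upstream start, chr6:88193641-88193890, + strand: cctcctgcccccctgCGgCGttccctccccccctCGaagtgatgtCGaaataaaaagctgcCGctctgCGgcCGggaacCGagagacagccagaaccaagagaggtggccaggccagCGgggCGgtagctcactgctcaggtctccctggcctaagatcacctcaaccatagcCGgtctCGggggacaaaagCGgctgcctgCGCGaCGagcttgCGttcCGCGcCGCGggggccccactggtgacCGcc
Gata2, downstream start, chr6:88198414-88198663, + strand: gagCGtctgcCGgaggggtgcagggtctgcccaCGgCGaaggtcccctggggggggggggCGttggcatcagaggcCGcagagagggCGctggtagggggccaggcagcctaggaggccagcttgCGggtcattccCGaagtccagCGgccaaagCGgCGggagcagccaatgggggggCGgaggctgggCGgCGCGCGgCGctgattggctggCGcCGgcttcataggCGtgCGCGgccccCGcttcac
Gata3, chr2:9878601-9878850, - strand: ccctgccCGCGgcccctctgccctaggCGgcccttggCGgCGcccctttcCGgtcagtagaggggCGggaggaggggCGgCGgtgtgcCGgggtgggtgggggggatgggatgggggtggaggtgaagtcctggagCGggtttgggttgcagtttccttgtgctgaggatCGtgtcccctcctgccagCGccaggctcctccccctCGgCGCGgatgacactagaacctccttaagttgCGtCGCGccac
These windows hold 22, 24 and 19 CpG, and their GC content is 67.2%, 74.0% and 70.0%. Over 32851 start windows of the same length in the table the median is 6 CpG and a GC content of 52.4%. Fewer CpG are found in 85.2%, 88.0% and 80.3% of them, so all 3 windows lie toward the CpG-rich end. Gata5, with 22 CpG, lies there too, and Gata1 has 2 CpG. The GATA factor recognition word was searched on both strands as AGATAA, with a last base of G as AGATAG, and with a first base of T as TGATAA or, with both changes, TGATAG. None of the 5 windows of the 4 genes holds it, while 26.5% of all windows do, which says only that these letters are absent from these stretches.

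The members differed widely in how far they moved across the 10 groups. Signals are RMA values on the log2 scale, in which 1 unit is a 2-fold difference. For each probe set the span is the highest group mean minus the lowest. It was 3.17 for Gata2 (102789_at), 2.09 for Gata3, 1.75 and 1.13 for Gata6 (160662_r_at and 104698_at), 0.80 for Gata4, 0.63 for Gata5 and 0.44 for Gata1 (161456_f_at). The median span over all 12422 probe sets was 1.14. Gata2 exceeded 91.3% of them, and Gata1 161456_f_at exceeded 7.34%. The family therefore holds a strongly varying member, 2 that varied in particular groups, and 3 genes that stayed within 1 unit. The brightest Gata6 probe set, 93925_at, spanned 0.44. Of the 45 pairs of groups, Gata2 102789_at was called in 30 and differed at least 2-fold in 22 of those. Gata3 was called in 18 pairs (13 at least 2-fold) and Gata6 160662_r_at in 24 (9 at least 2-fold). Gata1 161456_f_at was called in 21, Gata4 in 17 and Gata5 in 16, none of them 2-fold. The median gene was called in 24 pairs.

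**Figure D1:**
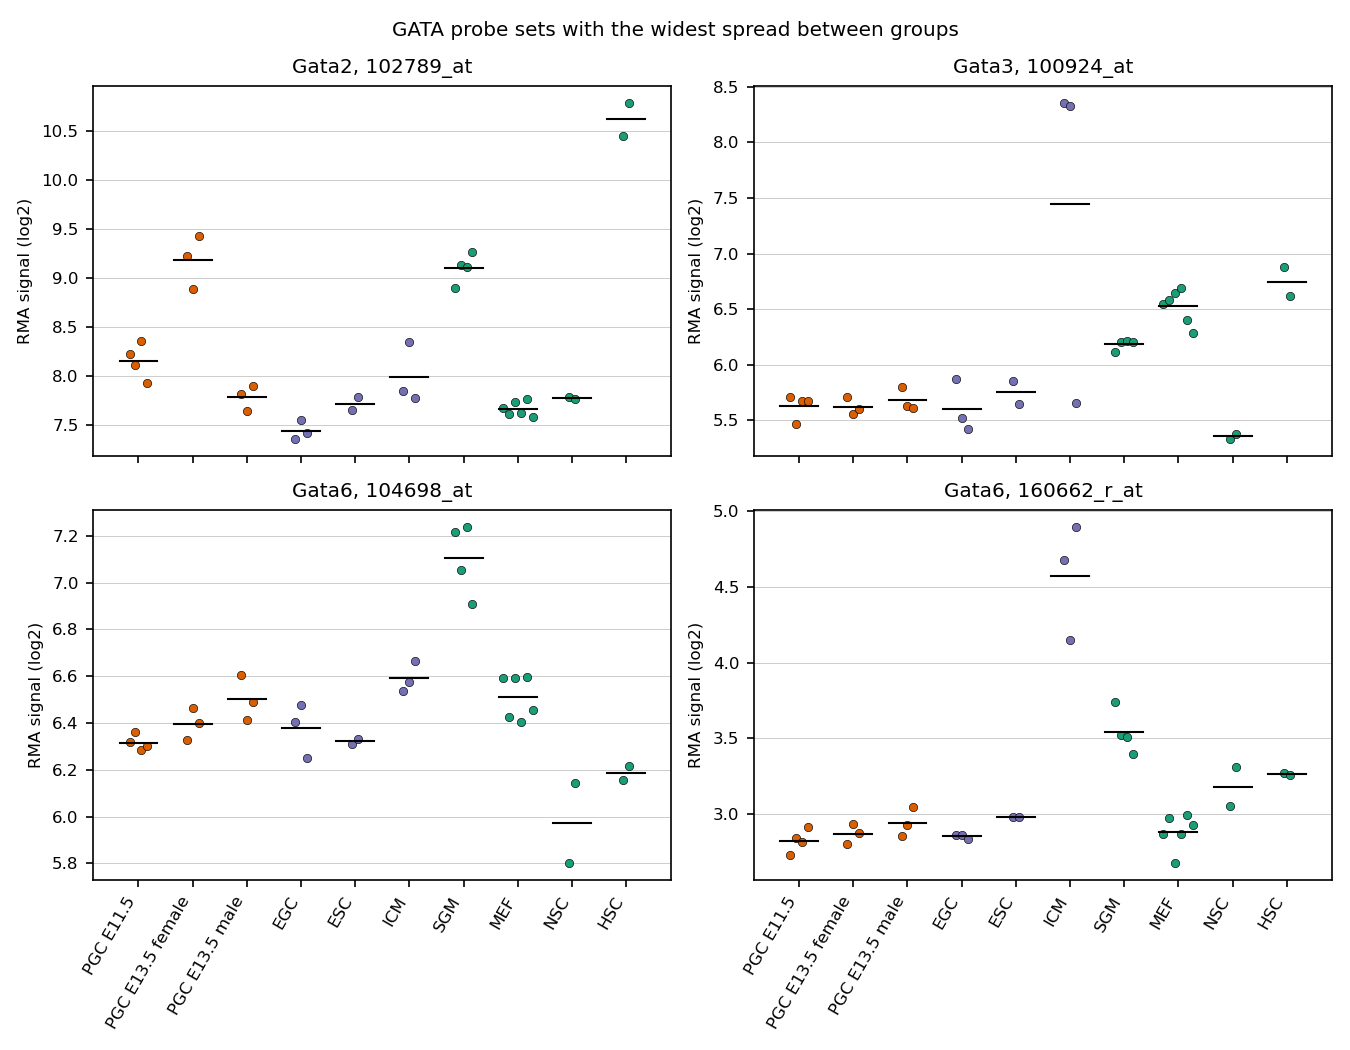
RMA signal (log2, y axis, scaled for each panel) of Gata2 102789_at, Gata3 100924_at, Gata6 104698_at and Gata6 160662_r_at in 10 cell groups (x axis). Points are arrays, black bars are group means, and colours mark germ cells (orange), other pluripotent groups (purple) and somatic groups (green): Gata2 is high in HSC, female E13.5 PGC and SGM, Gata3 in ICM replicates 1 and 2, and the Gata6 probe sets in SGM or ICM.

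Gata2 had its highest signal in blood stem cells. The 2 HSC arrays read 10.45 and 10.79 on the log2 scale. The 3 female E13.5 PGC arrays read 9.22, 8.89 and 9.43, and the 4 SGM arrays read 8.90, 9.13, 9.11 and 9.26. These 3 groups stood above all others, and no array of the remaining 7 groups exceeded 8.35. In bulk RNA such as this, fewer cells of a type and less RNA per cell cannot be told apart.

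The 4 E11.5 PGC arrays read 8.23, 8.11, 8.35 and 7.93, the 3 ICM arrays 7.85, 8.34 and 7.78, and the 3 male E13.5 PGC arrays 7.82, 7.64 and 7.90. NSC read 7.78 and 7.76, and ESC 7.66 and 7.78. The 6 MEF arrays ran from 7.58 through a median of 7.65 to 7.77, and the 3 EGC arrays read 7.36, 7.55 and 7.42. In the order of group means, HSC differed from female E13.5 PGC by 1.44 ± 0.15 (SE), a pair in which 59.3% of 8251 genes were called, and SGM differed from E11.5 PGC by 0.94 ± 0.12. A call here is an adjusted p under 0.05 in limma. Female E13.5 PGC and SGM did not differ beyond their spread, at 0.08 ± 0.13. No call was made in the other 6 neighbouring pairs, from E11.5 PGC down to EGC. Over these 7 pairs without a call the adjusted p ran from 0.108 to 0.951, the largest difference was 0.22, and 34.9% to 63.7% of genes were called.

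Between the adult stem cell groups, HSC exceeded NSC in Gata2 by 2.84 ± 0.17 (SE, n = 2 and 2 arrays), a 7.18-fold difference with an adjusted p of 4.87e-14 in limma. In this comparison 53.7% of 8251 genes and 49.9% of 12422 probe sets were called, and 4 of the 6 GATA genes were higher in HSC by their brightest probe set. The other 3 were Gata3, Gata4 and Gata1, described below. The other Gata2 probe set, 161820_f_at, has a low signal: it read 5.21 and 5.36 in HSC and 4.27 and 4.00 in NSC. Its difference was 1.15 ± 0.22, again a call, with an adjusted p of 0.000116. Against SGM, HSC was higher in Gata2 by 1.52 ± 0.15 (2.86-fold, adjusted p 6.48e-10). That comparison called 64.0% of genes and 62.9% of probe sets, and 2 of the 6 GATA genes, Gata2 and Gata5, were higher in HSC.

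Of 22 measured genes of GATA cofactors and partners, 10 were higher, 2 were lower and 10 were not called in HSC against NSC, with a median difference of 0.25 beside 0.11 over all genes. The called share of the list is close to the 53.7% of all genes, and the genes named next are its largest changes and the direct cofactors. Lmo2, which encodes the bridging protein of the TAL1 complex, read 13.00 and 13.03 in HSC, and its group means elsewhere ran from 7.25 in NSC to 8.88 in SGM. The difference between HSC and NSC was 5.77 ± 0.12, or 54.5-fold (adjusted p 9.19e-24). Tal1, the blood master regulator of the helix-loop-helix family, was higher in HSC than NSC by 3.09 ± 0.17 and Ldb1, which holds the complex together, by 1.24 ± 0.15. Nfe2, a platelet and globin gene regulator, was higher by 4.09 ± 0.25. Zfpm1, the FOG cofactor of blood, was higher by 1.68 ± 0.21. Zfpm2, the FOG cofactor of heart and gonad, was lower by 0.71 ± 0.12 (-0.71) and Hdac2, a histone deacetylase, by 2.47 ± 0.31 (-2.47).

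Blood stem and mast cell genes gave 18 higher and 0 lower of 21 in HSC over NSC, where 53.7% of all genes were called, with a median of 1.88. Lmo2, Procr (5.69 ± 0.22), an HSC surface receptor, and Myb (4.45 ± 0.39), a progenitor transcription factor, led them. Lmo2 is in both lists, and Kit, also in the blood list, was used in the sort. Macrophage genes were also higher, 11 of 12, led by Lyz2 (4.20 ± 0.22), Ctss (3.94 ± 0.28) and Tyrobp (2.79 ± 0.32). Erythroid and megakaryocyte genes gave 9 higher and 1 lower of 19, a called share close to that of all genes. They were led by Nfe2 and by the globins Hbb-b2 (2.71 ± 0.33) and Hba-a1 (1.64 ± 0.39), with Cpox (-0.32 ± 0.12) lower. The part of such other blood cells in the Gata2 difference was not tested. The cells were sorted as CD34-, and the Cd34 probe set read 8.11 and 8.27 in HSC, while no array of another group exceeded 7.21.

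**Figure D2:**
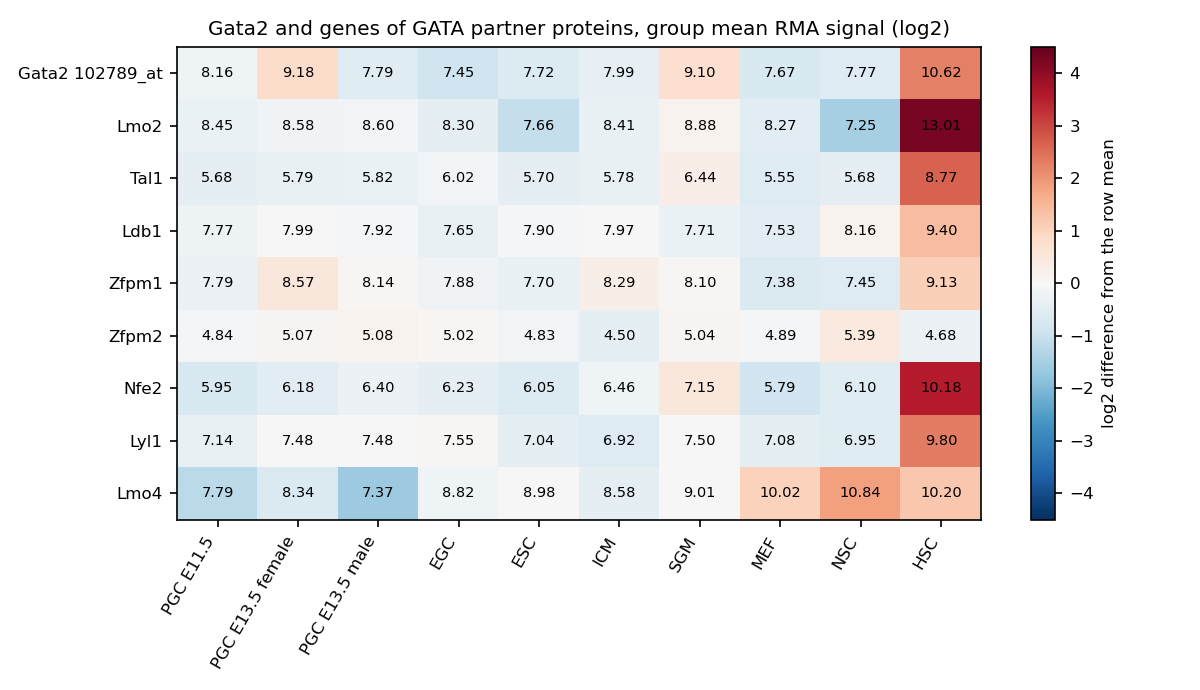
Group mean RMA signal (log2, printed in each cell) of Gata2 102789_at and 8 genes of GATA partner proteins (rows) in the 10 groups (columns). Colour is the difference from the mean of the row: Gata2, Lmo2, Tal1, Ldb1, Zfpm1, Nfe2 and Lyl1 all have their highest mean in HSC, while Zfpm2 and Lmo4 do not.

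In germ cells, E13.5 females lay above and E13.5 males below the mixed-sex E11.5 arrays in Gata2. From about E13.5, germ cells enter meiosis in the ovary and stop dividing in the testis. The E11.5 arrays mix the sexes, so the change within either sex was not measured. A rise or fall from E11.5 is a difference from this mixed group. From E11.5 (8.16 ± 0.18, SD, n = 4) the signal rose to 9.18 ± 0.27 (n = 3) in females, by 1.02 ± 0.13 (SE), which is 2.03-fold with an adjusted p of 1.19e-06 in limma. In males it fell to 7.79 ± 0.13 (SD, n = 3), a difference of -0.37 ± 0.13 (adjusted p 0.0185). Neither sex overlapped with E11.5, although the highest male array, 7.90, lay close to the lowest E11.5 array, 7.93. The male fall lost its call without PGC E11.5 replicate 3 (-0.31, adjusted p 0.0645) and without male E13.5 replicate 2 (-0.30, adjusted p 0.0895).

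At E13.5 the female signal exceeded the male one by 1.40 ± 0.14 (2.63-fold, adjusted p 6.88e-08 in limma). Both sexes are set against the same 4 E11.5 arrays, so their changes share those controls, and this difference tests the sexes directly. Gata2 was the only one of the 6 GATA genes called in it, where 8.62% of genes and 6.85% of probe sets were called. It was also the only member called in the female change over time (31.5% of genes and 27.0% of probe sets called). In the male change, Gata1 (161456_f_at, 0.27 ± 0.08) and Gata4 (0.26 ± 0.10) were called higher beside the fall of Gata2, among 52.4% of genes and 47.3% of probe sets called. The dim Gata2 probe set 161820_f_at did not show the sex difference: it read 4.81, 4.90 and 4.65 in females and 4.75, 4.74 and 4.65 in males, a difference of 0.07 with a 95% interval of -0.31 to 0.45 (adjusted p 0.849). It did not show the female rise either: its mean was 4.86 at E11.5 and 4.78 in females, not a call (adjusted p 0.785 in limma).

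Stra8, the retinoic acid response gene of meiotic entry, checked the sex labels: it read 8.41, 7.80 and 9.40 in the female arrays and 5.24, 4.94 and 5.14 in the male ones. Female replicate 2 was the lowest and female replicate 3 the highest in both Stra8 and Gata2. Of the 22 GATA cofactors and partners, 1 was higher and 1 lower in females at E13.5: Lmo4, a LIM-only gene (0.96 ± 0.25), and Kdm1a, a histone demethylase (-0.28 ± 0.08). The median of the list was -0.09, beside -0.05 over all genes. Zfpm1 rose in females from E11.5 by 0.78 ± 0.16 (adjusted p 0.000487) and read 8.70, 8.75 and 8.25 there against 8.04, 8.04 and 8.34 in males, but the difference between the sexes, 0.43 ± 0.17, missed the threshold (adjusted p 0.133). Other cell types that carry GATA2 can be in a sorted sample, and their part in the Gata2 difference was not tested. Between the sexes 8.62% of all genes were called, and the called share of each list in this paragraph was near or below that. Endothelial genes gave 0 calls of 13 between the sexes, with a mean level of the list from 6.96 to 7.17 over the female and 7.11 to 7.17 over the male arrays. Blood stem and mast cell genes gave 2 higher of 21 in females, Myb (1.02 ± 0.32) and Hhex (0.45 ± 0.13), with list levels of 6.26 to 6.28 and 6.22 to 6.26. Gonad soma genes gave 1 of 22 higher, Cbx2 (0.34 ± 0.10), with list levels of 6.77 to 6.84 in females and 6.91 to 6.94 in males.

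Marker lists were also compared over time, where 31.5% of all genes were called in females and 52.4% in males. The median over all genes was 0.09 in females and 0.15 in males. From E11.5, endothelial genes gave 6 higher of 13 in females, led by Eng (0.74 ± 0.18), and 11 higher of 13 in males, led by Emcn (0.80 ± 0.14), from list levels of 6.73 to 6.94 at E11.5. Gonad soma genes gave 6 higher and 2 lower of 22 in females and 12 higher and 2 lower in males. The called share of this list in females was close to that of all genes. Over all genes, 1348 were called higher and 1254 lower in females, and 2616 higher and 1710 lower in males. The part of endothelial and gonad soma cells in the Gata2 changes was not tested. GATA cofactors and partners gave 4 higher and 1 lower of 22 in females and 10 higher and 1 lower in males. Their called share was below that of all genes in females and close to it in males. In males, Hand2 (0.47 ± 0.12), a heart and limb regulator, led the rises and Hdac2 (-0.88 ± 0.24) was lower. Germ cell genes gave 2 higher and 4 lower of 8 in females and 1 higher and 4 lower in males, with Kit (-1.58 ± 0.24 and -2.13 ± 0.24), the stem cell factor receptor, and Prdm1 (-1.35 ± 0.18 and -1.97 ± 0.18), a germ cell specifier, lower in both.

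In the E11.5 gonad region, Gata2 was higher in the somatic fraction than in the germ cells beside it, by 0.94 ± 0.12 (1.92-fold, adjusted p 1.27e-07 in limma). The 4 SGM arrays lay above the 4 E11.5 PGC arrays without overlap. This comparison called 50.2% of genes and 44.6% of probe sets. Of the 6 GATA genes, 2 were called, Gata2 and Gata1, both higher in SGM, and of the 4 other probe sets 2 were called higher, both of Gata6. In the dim Gata2 probe set the difference was 0.21 ± 0.16 and not a call (adjusted p 0.318). Cultured fibroblasts were lower than SGM in Gata2 by 1.43 ± 0.11 (-1.43, 2.70-fold, adjusted p 7.07e-12). There, 49.8% of genes and 44.3% of probe sets were called, and 2 of the 6 GATA genes, Gata2 and Gata1, were lower in MEF.

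Marker lists of several cell types were compared between SGM and E11.5 PGC as well, where 50.2% of all genes were called. Mesenchyme and fibroblast genes gave 12 higher and 0 lower of 14 in SGM over E11.5 PGC, with a median of 2.65 beside 0.04 over all genes. The matrix genes Dcn (5.15 ± 0.23), Postn (4.24 ± 0.16) and Col3a1 (4.15 ± 0.11) led them, and the list ran from 9.96 to 10.23 over the SGM arrays and from 7.42 to 7.82 over the PGC arrays. Gonad soma genes gave 13 higher and 2 lower of 22, with a median of 0.38. The orphan receptors Nr2f1 (3.17 ± 0.29) and Nr2f2 (3.14 ± 0.22) and the genital ridge regulator Wt1 (3.13 ± 0.14) led them, and Dmrt1 (-1.78 ± 0.19), a germ and Sertoli cell regulator, was lower. Mesonephric duct genes gave 7 higher and 0 lower of 11, with the kidney cadherin Cdh16 at 3.34 ± 0.16 and the calcium binding Calb1 at 2.96 ± 0.10. Endothelial genes gave 6 higher and 0 lower of 13, led by Emcn (2.76 ± 0.13), with list levels of 7.22 to 7.41 in SGM and 6.73 to 6.94 in E11.5 PGC. Their called share was close to that of all genes. Erythroid and megakaryocyte genes gave 14 higher and 1 lower of 19, led by the embryonic globin Hba-x (5.61 ± 0.21), with list levels of 8.36 to 8.79 and 6.80 to 7.31.

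Blood stem and mast cell genes gave 10 higher and 2 lower of 21 in that comparison, where 50.2% of all genes were called. The called shares of this list and of the cofactor list below were close to that. Meis1 (1.97 ± 0.14), a homeobox gene of stem cells, and Hdc (1.69 ± 0.14), which makes histamine in mast cells, rose most, while Myb (-3.34 ± 0.27) and Kit (-3.33 ± 0.22) were lower in SGM. The list ran from 6.30 to 6.40 over the SGM arrays and from 6.29 to 6.34 over the PGC arrays. The part of each cell type in the Gata2 signal of SGM was not tested. GATA cofactors and partners gave 10 higher and 2 lower of 22, with Lmo4 (1.22 ± 0.22), Nfe2 (1.20 ± 0.18), Tal1 (0.76 ± 0.12) and Lmo2 (0.43 ± 0.08) higher and Hdac1 and Chd4 lower. Zfpm2, the FOG cofactor that works with GATA4 in the gonad, differed by 0.20 ± 0.09 (adjusted p 0.0546), which is not a call.

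Marker lists were also compared between MEF and SGM, where Gata2 was lower in MEF and 49.8% of all genes were called. Mesenchyme and fibroblast genes gave 11 higher and 0 lower of 14 in MEF, with a median of 1.18 beside -0.05 over all genes, led by S100a4 (4.96 ± 0.12), Tagln (4.00 ± 0.12) and Thy1 (3.97 ± 0.13). Gonad soma genes gave 3 higher and 14 lower of 22, with a median of -0.56, and Wt1 (-3.25 ± 0.12) fell most. Mesonephric duct genes gave 1 higher and 6 lower of 11, with Cdh16 (-3.26 ± 0.15) the largest fall. Erythroid and megakaryocyte genes gave 0 higher and 12 lower of 19, led by the embryonic globins Hbb-y (-6.84 ± 0.36) and Hba-x (-6.46 ± 0.20). Blood stem and mast cell genes gave 2 higher and 9 lower of 21, and endothelial genes 1 higher and 5 lower of 13. The called shares of these last 2 lists were close to that of all genes. The part of these cell types in the Gata2 difference was not tested.

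Gata3 was high in 2 of the 3 inner cell mass arrays and low in the third. ICM replicates 1, 2 and 3 read 8.36, 8.33 and 5.66 on the log2 scale, and the 2 ESC arrays read 5.85 and 5.65. ICM replicate 3 thus lay between the ESC arrays, and replicates 1 and 2 lay above every array of every other group.

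The mean difference between ICM and ESC was 1.70 ± 0.41 (3.24-fold, adjusted p 0.00244 in limma), with overlapping arrays. That comparison called 27.8% of genes and 27.3% of probe sets, and Gata3 was the only one of the 6 GATA genes called by its brightest probe set. Without ICM replicate 3 the difference was 2.59 (adjusted p 4.01e-14). It was 1.24 without replicate 1 and 1.26 without replicate 2. In a fit of the 2 compared groups alone the call was lost (adjusted p 0.211).

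Trophectoderm genes split the ICM arrays the same way. Eomes, a T-box gene of trophoblast stem cells, read 10.61, 10.35 and 6.84 in ICM replicates 1, 2 and 3. Krt18, a keratin of the outer epithelium, read 11.26, 11.14 and 7.57, and its partner Krt8 read 11.18, 11.43 and 9.29. Each was high in replicates 1 and 2, as Gata3 was. Cdx2, the defining trophectoderm regulator, read 6.31, 6.37 and 5.83 and overlapped with ESC, at 6.33 and 5.49. Of 19 trophectoderm genes, 7 were called higher and 1 lower in ICM than in ESC, where 27.8% of all genes were called. Their median was 0.23 beside -0.04 over all genes. The list mean was 7.96, 7.99 and 7.19 in the 3 ICM arrays against 7.08 to 7.21 in ESC. The part of trophectoderm cells in the Gata3 signal was not tested.

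**Figure D3:**
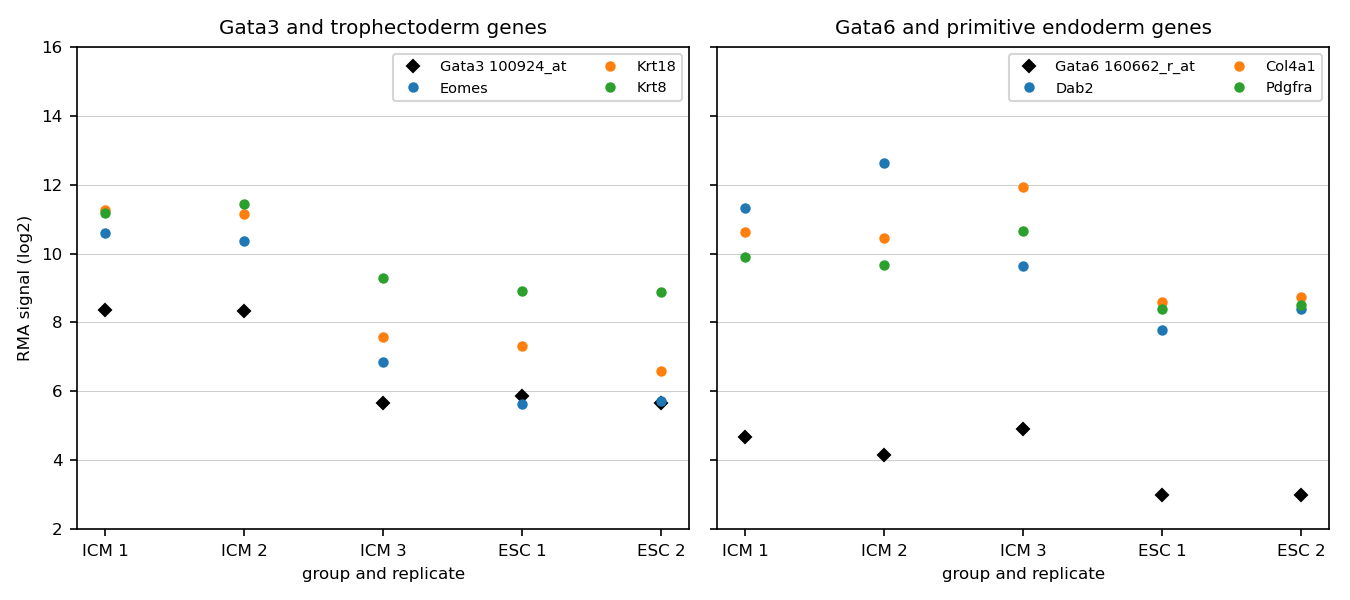
RMA signal (log2, y axis) in the 3 ICM and 2 ESC arrays (x axis, group and replicate). The left panel sets Gata3 beside the trophectoderm genes Eomes, Krt18 and Krt8, all lower in ICM replicate 3, and the right panel sets Gata6 160662_r_at beside the primitive endoderm genes Dab2, Col4a1 and Pdgfra, where Gata6, Col4a1 and Pdgfra are highest in ICM replicate 3; heights of different genes are not comparable.

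Outside the inner cell mass, Gata3 read 6.88 and 6.62 in HSC. The 6 MEF arrays ran from 6.28 through a median of 6.56 to 6.69, and the 4 SGM arrays read 6.12, 6.20, 6.21 and 6.20. All arrays of these 3 groups lay above those of the remaining 6 groups, whose means ran from 5.36 in NSC to 5.75 in ESC. The 10 germ cell arrays lay between 5.46 and 5.80.

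HSC exceeded NSC in Gata3 by 1.39 ± 0.44 (2.62-fold, adjusted p 0.0101 in limma), a call that was lost without HSC replicate 1 (1.26). The adjusted p of this difference in limma was 1.69e-09 without ICM replicate 3 and 0.000448 in a fit of the compared groups alone. SGM exceeded E11.5 PGC by 0.55 ± 0.31 (adjusted p 0.151), MEF exceeded SGM by 0.34 ± 0.29 (adjusted p 0.353) and HSC exceeded SGM by 0.56 ± 0.38 (adjusted p 0.204). None of these 3 was a call, although the arrays did not overlap in any. The fit shares 1 estimate of spread over all groups, and the SD of Gata3 over the ICM arrays was 1.55, against 0.03 to 0.23 in the other groups. Without ICM replicate 3 all 3 differences were called, with adjusted p-values of 1.7e-05, 0.00159 and 0.000145, and so they were in fits of the compared groups alone (0.000173, 0.0036 and 0.00284). No neighbouring pair in the order of the Gata3 means was called, with adjusted p-values from 0.132 to 0.987, and 30.3% to 71.5% of genes were called in those pairs. Between the germ cell groups Gata3 differed by at most 0.06 (-0.06 for females over males), with a 95% interval of -0.80 to 0.69.

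Gata6 gave different pictures by probe set. Its brightest probe set, 93925_at, had group means from 6.47 in ICM to 6.91 in EGC, and no neighbouring pair in that order was called. The other plain probe set, 104698_at, was highest in the somatic gonad and mesonephros cells. The probe set 160662_r_at, whose suffix marks a set picked under relaxed design rules, was highest in the inner cell mass.

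On 104698_at the 4 SGM arrays read 7.22, 7.05, 7.24 and 6.91, and no other array of the series exceeded 6.67. The 4 E11.5 PGC arrays read 6.32, 6.36, 6.28 and 6.30, the 6 MEF arrays ran from 6.40 to 6.60, and HSC read 6.16 and 6.22. SGM was higher than E11.5 PGC by 0.79 ± 0.08 (1.73-fold, adjusted p 4.06e-09 in limma). MEF was lower than SGM by 0.59 ± 0.07 (-0.59) and HSC lower than SGM by 0.92 ± 0.10 (-0.92). SGM also exceeded its neighbour in the order, ICM, by 0.51 ± 0.09, where 58.8% of probe sets were called, and no other neighbouring pair was called.

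On 160662_r_at signals were low in every group, with no detection calls, so its folds are rough. The 3 ICM arrays read 4.68, 4.15 and 4.90 and the 2 ESC arrays 2.98 and 2.98. The 4 SGM arrays read 3.74, 3.52, 3.51 and 3.39 and the 4 E11.5 PGC arrays 2.73, 2.84, 2.81 and 2.91. ICM stood above all other groups without overlap, and SGM came next. ICM exceeded ESC by 1.60 ± 0.14 (3.03-fold, adjusted p 1.01e-09 in limma), and without ICM replicate 1, 2 or 3 the difference was 1.55, 1.81 or 1.44. ICM exceeded SGM by 1.03 ± 0.12, and this was the only neighbouring pair called. SGM exceeded E11.5 PGC by 0.72 ± 0.11 (adjusted p 2.23e-06) and MEF was lower than SGM by 0.66 ± 0.10 (-0.66).

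The 3 Gata6 probe sets thus agreed in part. In SGM over E11.5 PGC, 104698_at and 160662_r_at were called higher and 93925_at differed by -0.06 ± 0.10 (adjusted p 0.633). In MEF over SGM, the same 2 probe sets were called lower and 93925_at differed by -0.01 ± 0.09. In ICM over ESC, 160662_r_at was called higher, while 104698_at (0.27 ± 0.11, adjusted p 0.0566) and 93925_at (-0.31 ± 0.13, adjusted p 0.0659) missed the threshold with opposite signs. With the 3 probe sets averaged, Gata6 was called higher in SGM (0.48) and in ICM (0.52).

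Of 29 primitive endoderm genes, 11 were called higher, 1 lower and 17 not at all in ICM over ESC, where 27.8% of all genes were called. Their median was 0.16 beside -0.04 over all genes. The list includes Gata5, which was not called. Dab2, an endocytic adaptor needed for endoderm sorting, was higher by 3.10 ± 0.44, Col4a1, a basement membrane collagen, by 2.35 ± 0.33 and Pdgfra, a receptor that marks primitive endoderm precursors, by 1.62 ± 0.28. Apoe, an apolipoprotein, was lower (-1.14 ± 0.27). Over ICM replicates 1, 2 and 3, Col4a1 read 10.63, 10.46 and 11.94 and Pdgfra read 9.89, 9.66 and 10.67. Replicate 3 was the highest and replicate 2 the lowest in both and in Gata6 160662_r_at. Dab2, also known from trophoblast, ran the other way at 11.34, 12.63 and 9.64.

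The part of primitive endoderm precursors in the Gata6 difference was not tested. GATA cofactors and partners gave 5 higher and 2 lower of 22 between ICM and ESC, with Hdac2 (1.05 ± 0.28), Lmo2 (0.76 ± 0.11) and Zfpm1 (0.59 ± 0.19) the largest rises and Chd4 (-0.43 ± 0.15) and Zfpm2 (-0.33 ± 0.11) the falls. Their called share was close to the 27.8% of all genes. Their median was close to 0, as was that of all genes.

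**Figure D4:**
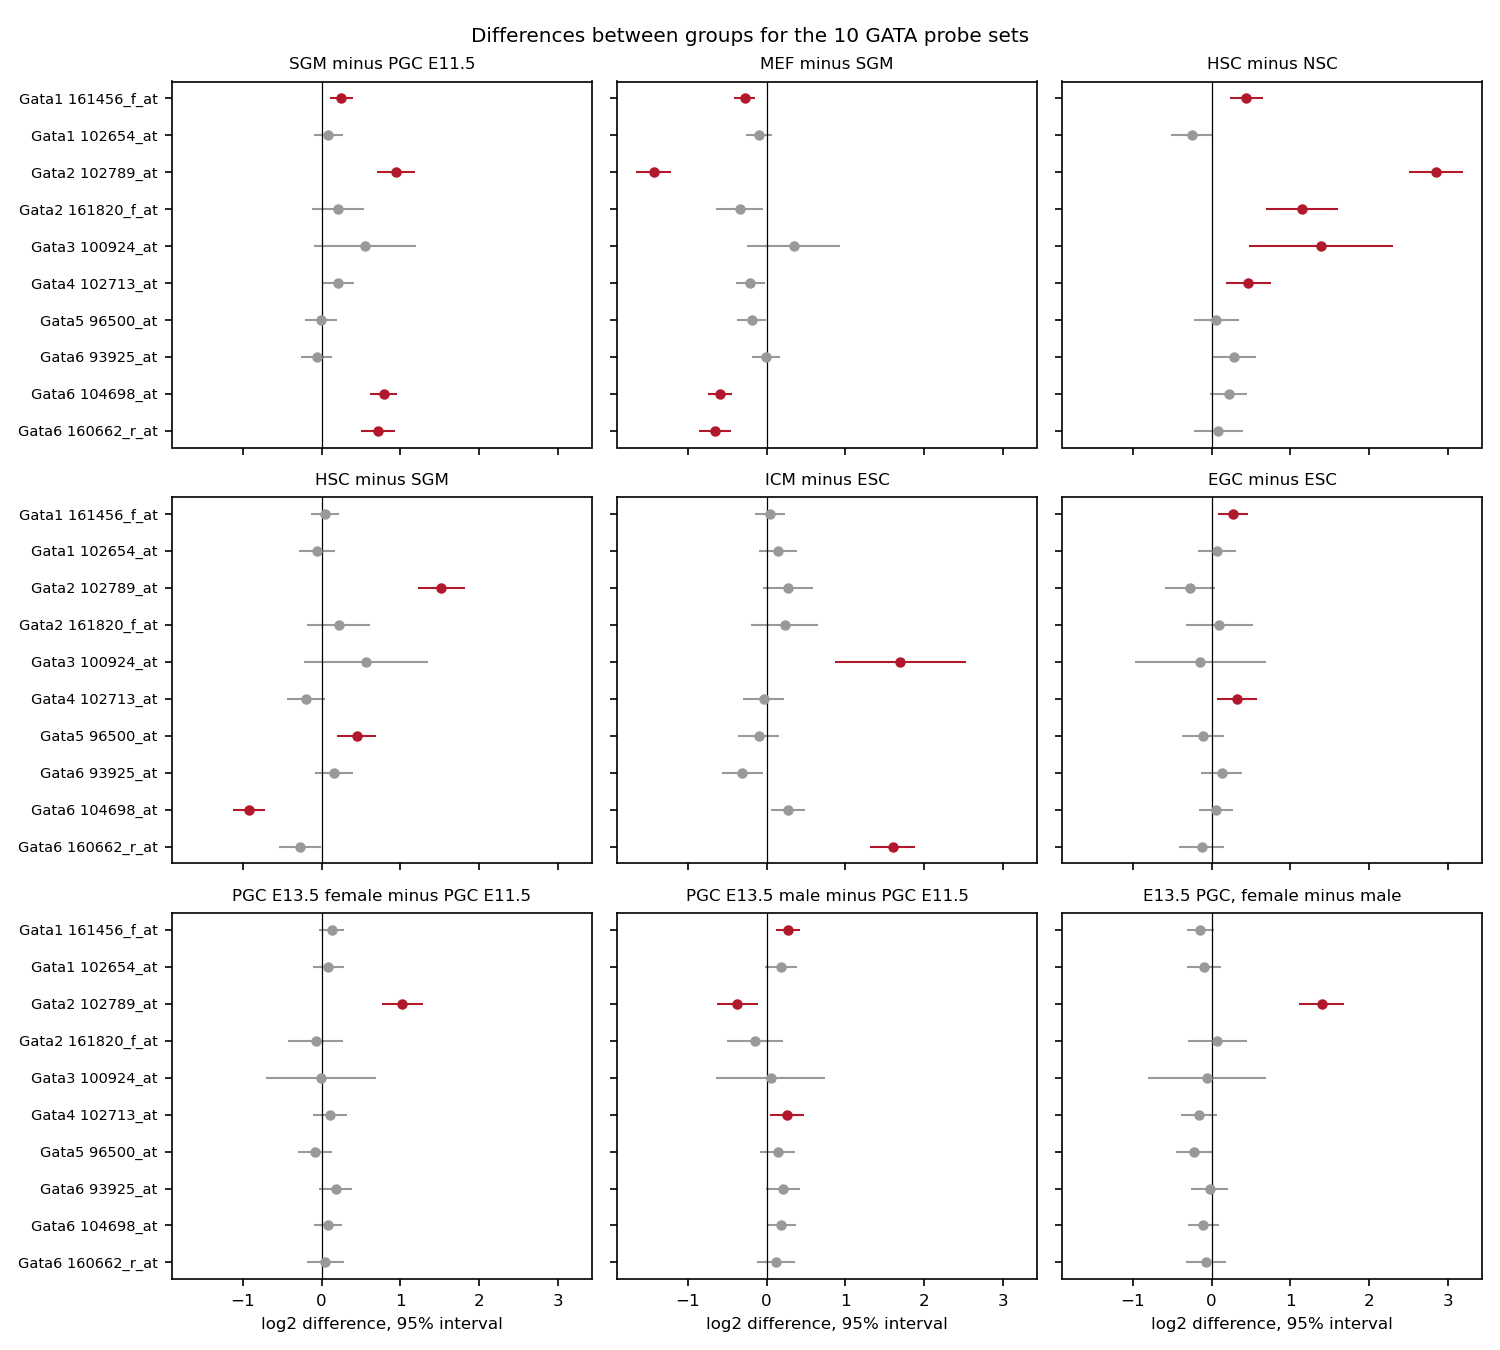
Differences between groups (log2, x axis, points with 95% intervals from limma) for the 10 GATA probe sets (y axis) in 9 comparisons. Red points have an adjusted p under 0.05 and grey points do not: Gata2 102789_at is called in 7 of the 9, and Gata3 has the widest intervals.

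The signal of the Gata4 probe set hardly varied. Without detection calls, its level does not show how much Gata4 RNA each group held. Its group means ran from 8.18 ± 0.15 (SD, n = 2) in NSC to 8.98 ± 0.09 (n = 3) in EGC, and 9 of the 10 groups lay between 8.63 and 8.98. SGM, the group that holds the genital ridge, read 8.92, 8.76, 8.81 and 8.89 and E11.5 PGC read 8.65, 8.50, 8.55 and 8.84, so the arrays overlapped. The difference of 0.21 ± 0.10 was not a call (adjusted p 0.0765 in limma). It was called without PGC E11.5 replicate 4 (0.28). The 3 ICM arrays read 8.55, 8.46 and 8.86 and differed from ESC by -0.04 ± 0.13, with a 95% interval of -0.30 to 0.22. The small differences that were called were HSC over NSC (0.47 ± 0.14), EGC over ESC (0.32 ± 0.13, adjusted p 0.0439), male E13.5 over E11.5 PGC (0.26 ± 0.10) and pluripotent over somatic groups (0.18 ± 0.05). Only NSC differed from its neighbour in the order, lying 0.44 below ICM, in a pair with 51.8% of genes called. HSC over NSC lost its call without NSC replicate 1 (0.36) and without HSC replicate 1 (0.39). EGC over ESC lost it without ESC replicate 2 (0.22, adjusted p 0.328), EGC replicate 2 (adjusted p 0.126) or EGC replicate 3 (adjusted p 0.0791). Male E13.5 over E11.5 PGC lost it without any array of the comparison but PGC E11.5 replicate 4 (adjusted p 0.0544 to 0.115), and with arrays centred on their median (0.18, adjusted p 0.156).

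Gata1 was near flat, blood stem cells included. On 161456_f_at, whose suffix marks probes shared among related sequences, group means ran from 7.17 in NSC to 7.61 in HSC. HSC read 7.60 and 7.62, and SGM, with its high globin signal, read 7.47, 7.56, 7.63 and 7.60. It was called higher in HSC than NSC (0.44 ± 0.10), in SGM than E11.5 PGC (0.25 ± 0.07), in EGC than ESC (0.27 ± 0.09) and in male E13.5 than E11.5 PGC, and lower in MEF than SGM (-0.28 ± 0.07). Each of these is below 1.4-fold. The EGC over ESC call was lost without ESC replicate 2 (adjusted p 0.154), EGC replicate 1 (0.0535) or EGC replicate 2 (0.0876), and with the compared groups alone (0.0725). With the compared groups alone HSC over NSC lost its call as well (0.0692). The plain probe set 102654_at had group means from 7.01 in MEF to 7.30 in NSC and was called in none of the 10 comparisons. In HSC over NSC it differed by -0.26 ± 0.13 (adjusted p 0.0976), the opposite sign. No neighbouring pair was called on either Gata1 probe set.

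Gata5 had group means from 5.52 in MEF to 6.16 in HSC, and no neighbouring pair was called. The 2 HSC arrays read 6.28 and 6.04 and the 4 SGM arrays 5.93, 5.62, 5.70 and 5.60. The difference of 0.45 ± 0.12 was a call (adjusted p 0.00222 in limma) that was lost without HSC replicate 1 (0.32, adjusted p 0.074). ICM and ESC differed by -0.10 ± 0.13.

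**Figure D5:**
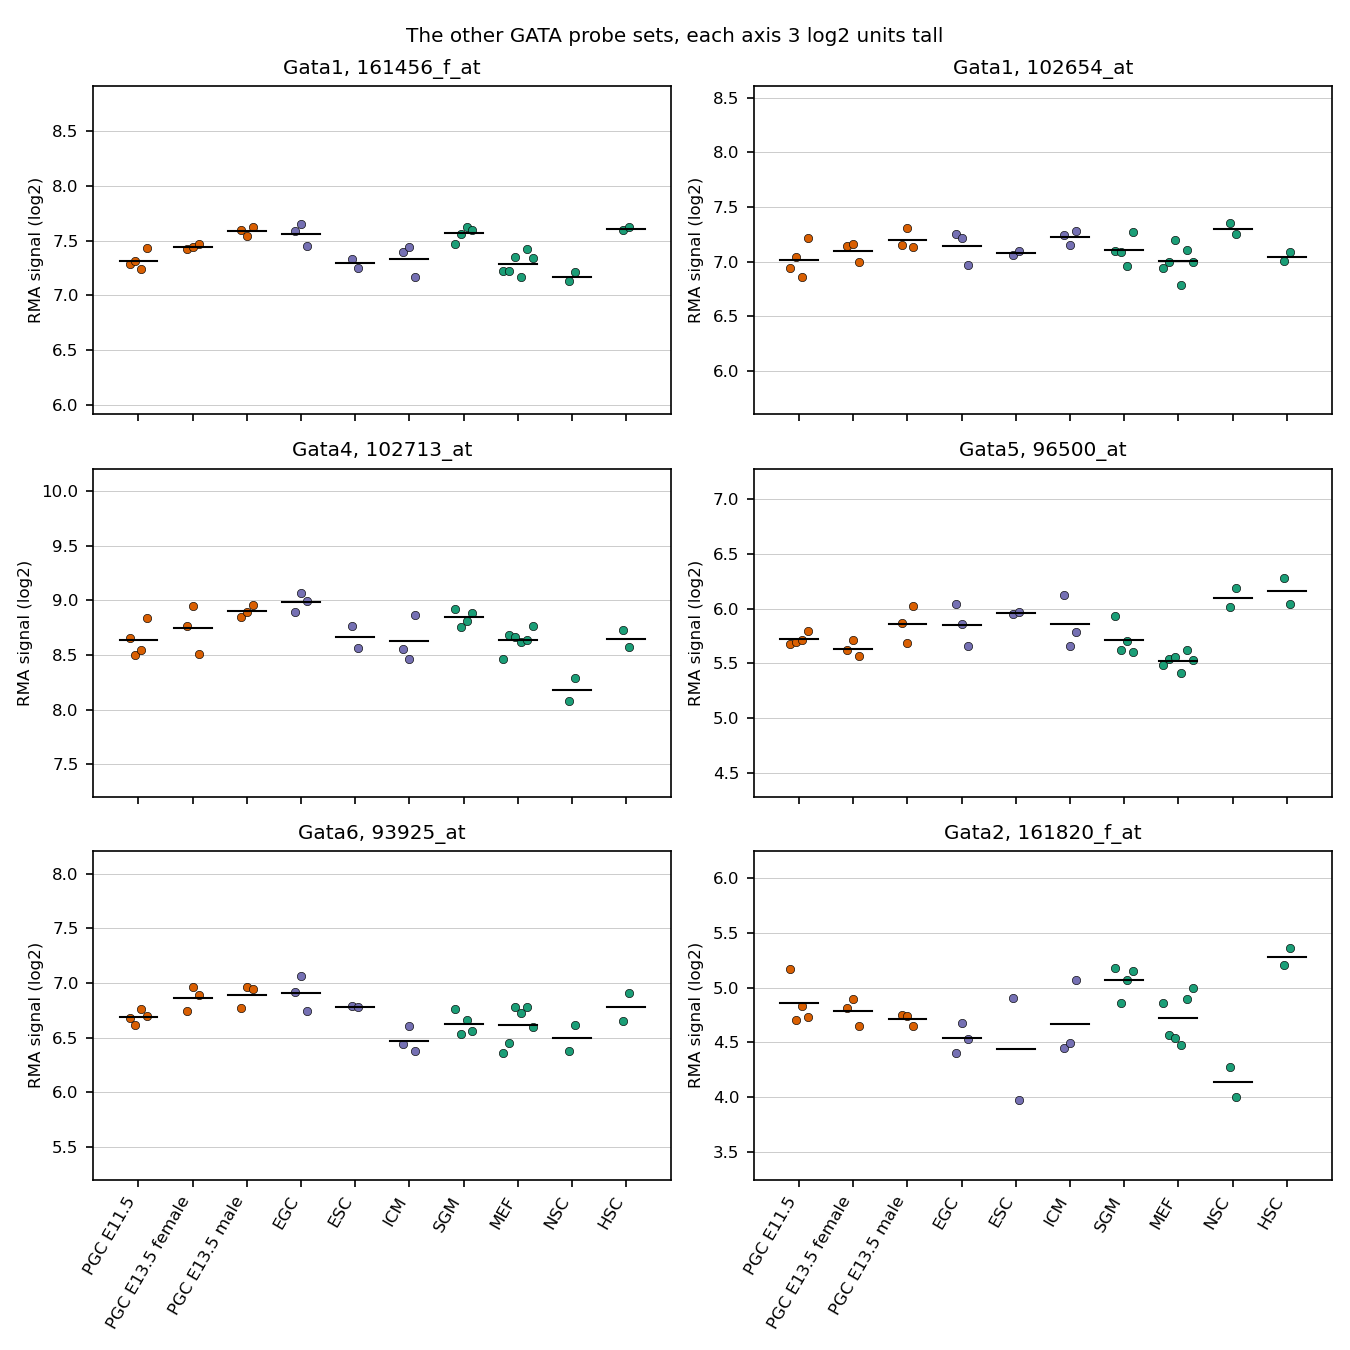
RMA signal (log2, y axis, 3 units tall in every panel) of Gata1 (161456_f_at and 102654_at), Gata4, Gata5, Gata6 93925_at and Gata2 161820_f_at in the 10 groups (x axis). Points are arrays and black bars are group means: Gata1, Gata4, Gata5 and Gata6 93925_at keep all group means within 0.80, and the dim Gata2 probe set is lowest in NSC and highest in HSC.

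Between the cultured pluripotent lines, EGC and ESC, 2 of the 6 GATA genes were called, Gata1 and Gata4, both higher in EGC, among 39.4% of genes and 38.6% of probe sets called. Gata2 read lower in EGC without overlap, by -0.28 ± 0.15, which was not a call (adjusted p 0.157). The called share of each list given next was close to that of all genes. Of the 22 cofactors and partners, 6 were higher and 3 lower in EGC. Lmo2 (0.65 ± 0.11), Hdac1 (0.61 ± 0.20) and the blood vessel factor Fli1 (0.55 ± 0.12) rose most, and Med1 (-1.13 ± 0.23), a Mediator subunit that binds GATA1, fell most. Primitive endoderm genes gave 10 higher and 2 lower of 29, led by Rbp4 (1.14 ± 0.20), with a median of 0.06 beside 0.04 over all genes. Mesenchyme and fibroblast genes gave 6 higher and 0 lower of 14, with a median of 0.45, led by the smooth muscle genes Acta2 (3.49 ± 0.27) and Tagln (1.77 ± 0.16). That list ran from 8.46 to 8.61 over the EGC arrays and from 7.74 to 7.94 over the ESC arrays, and its part in the Gata1 and Gata4 differences was not tested.

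Averaged over groups, the 6 pluripotent groups were lower than the 4 somatic groups in Gata2 by 0.74 ± 0.06 (-0.74, adjusted p 5.45e-11 in limma), with overlapping arrays. The high somatic means were those of HSC (10.62) and SGM (9.10), while MEF (7.67) lay below 5 of the 6 pluripotent means. Gata4 (0.18 ± 0.05) and Gata6 93925_at (0.14 ± 0.05) were called higher in pluripotent groups. The Gata6 call was lost without NSC replicate 1 (adjusted p 0.106) or HSC replicate 1 (0.11) and with the 3 probe sets averaged (0.02, adjusted p 0.63), and 104698_at and 160662_r_at differed by -0.03 and -0.04. This contrast called 63.9% of genes and 60.9% of probe sets. Among cofactors and partners it gave 4 higher and 12 lower of 22, with Hdac1 (0.72 ± 0.09) the largest rise and Lmo4 (-1.71 ± 0.12), Nfe2 (-1.09 ± 0.09) and Lmo2 (-1.02 ± 0.05) the largest falls. In HSC over SGM, where 64.0% of genes were called, the same list gave 11 higher and 6 lower. In MEF over SGM, where 49.8% of genes were called, it gave 4 higher and 12 lower. Zfpm1 (-0.72 ± 0.14), Lmo2 (-0.61 ± 0.08) and Tal1 (-0.89 ± 0.11) were lower in MEF.

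The genes whose group means most resembled a member were ranked by Pearson correlation over the 10 group means, among 5008 genes with a span of at least 1. This is a description over points that share arrays. Gata2 102789_at was most like Cln6 (0.910), a lysosomal disease gene, Plxnd1 (0.907), a vascular semaphorin receptor, Numa1 (0.901), a spindle protein, Uck1 (0.895) and Tyrobp (0.895), a myeloid adaptor, all with their highest mean in HSC. Gata3 was most like Ndrg1 (0.932), Cdipt, Rab11fip5, Lman2 and Hspa1b (0.881), of which all but Rab11fip5 peak in ICM. Gata6 104698_at was most like Nynrin (0.951), Calb1 (0.936), Myh10 (0.930), St3gal6 (0.923) and Gpc3 (0.917), all highest in SGM. Gata6 160662_r_at was most like Vnn1 (0.965), Satb1 (0.954), Naalad2, Tmprss2 and Entpd1 (0.928), all highest in ICM. For the near-flat members the best matches were Rbpms for Gata4 (0.973), Gfus for Gata5 (0.966), Slc39a4 (0.936) and Ube2v1 (0.917) for the Gata1 probe sets and Abcb1a for Gata6 93925_at (0.913). Chchd7 (0.921) was the best match of Gata2 161820_f_at.

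The pluripotency, neural stem, blood stem and fibroblast lists were highest in the groups they are named for. The mean level of 16 pluripotency genes was 9.41 to 11.04 over the pluripotent arrays and 6.84 to 7.08 over the somatic arrays. Neural stem genes were at 9.63 to 9.76 in NSC against 6.95 to 7.60 elsewhere, and blood stem genes at 8.06 to 8.12 in HSC against 6.01 to 6.40. Mesenchyme and fibroblast genes were at 11.71 to 11.89 in MEF and 9.96 to 10.23 in SGM. Other lists sorted less cleanly. Germ cell genes were at 7.32 to 7.93 in E11.5 PGC and 7.48 to 8.10 in female E13.5 PGC. In male E13.5 PGC they were at 6.90 to 6.99, below ESC (7.16 to 7.17) and ICM (7.16 to 7.19). The mean of the primitive endoderm list was higher in MEF (7.99) and SGM (7.89) than in ICM (7.83). Over the 10 comparisons and 10 probe sets, 28 of 100 differences were called, 16 of them with at least 0.5 on the log2 scale.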

How the data were processed

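RNA was measured on an Affymetrix mouse array. Per the labels, total RNA went through 2 rounds of in vitro transcription with biotin. The authors deposited log2 values made with RMA, per the submitters' processing notes, with no version given. The table has no detection calls, so folds of dim probe sets are rough, and 13 probe sets exceed 16 on MEF arrays, none of them a GATA probe set. Of 34 columns, 2 equal the mean of other columns of their group (within 1e-06) and were left out. Symbols came from the platform annotation, 1 symbol for 10833 probe sets, updated by gene ID where possible.

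Group means were fitted with limma 3.58.1 (R 4.3.3, lmFit and eBayes) over 32 arrays, with 8251 genes by brightest probe set, or all 12422 non-control probe sets for the other members. A call is a two-sided Benjamini-Hochberg adjusted p under 0.05. The fit was tested on simulated data. Errors of differences are SE and of means SD. The number of arrays limits precision. Members and lists (13 lists of markers and partners) were chosen with earlier results of these data known. Named list genes are the 3 called rises and falls of largest size and the direct cofactors Zfpm1, Zfpm2, Lmo2, Tal1 and Ldb1. Cdx2, Cd34 and, in a plot, Lyl1 were chosen after their values were seen. Replicate numbers were not taken as pairs: residuals of arrays with the same number correlated between -0.566 and 0.521 in the 9 pairs of groups compared, and exceeded 0.1 throughout only in 1 pair, with fewer than 3 numbers. Alternatives covered the columns used, the probe set rule, dim probe sets, normalization, the groups fitted, array weights, a trended robust fit, a replicate block and each array left out in turn.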

Additional observations from a re-analysis of the deposited data

Results flagged for a closer look

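Gata2 (102789_at) differed between female and male germ cells at E13.5 by 1.40 on the log2 scale, which limma tested directly. Both sexes were set against the same mixed-sex E11.5 arrays, so changes within each sex were not compared. Among 30 groups of 4 or more arrays (10 probe sets in E11.5 PGC, SGM and MEF), 2 held an array far from the rest by Dixon's test, and chance gives about 1 in 20. Gata3 in PGC E11.5 replicate 2 read 5.46, below the other 3 arrays at 5.67 to 5.71. Gata3 in SGM replicate 1 read 6.12, below the other 3 at 6.20 to 6.21.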

How the results depend on the processing

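The 16 called GATA differences of at least 0.5 log2 kept their direction in the 672 values computed for them over 12 alternative settings and 32 arrays left out in turn (settings on the choice of probe set were run for the brightest probe sets alone, and those on the groups fitted not for every comparison). In 2 of these values the call was lost: ICM over ESC in Gata3 in a fit of the compared groups alone (1.70, adjusted p 0.211; the cause was not tested), and HSC over NSC in Gata3 without HSC replicate 1 (1.26 to 1.52 over all arrays left out). With all probe sets of a gene averaged, Gata6 93925_at changed sign and was called in SGM over E11.5 PGC (0.48), HSC over SGM (-0.35) and ICM over ESC (0.52). With plain probe sets alone, Gata1 in HSC over NSC became -0.26. Both follow from the probe sets used. The other 84 differences lost a call in 31 and gained one in 62 of 3528 refits.

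Genes called in ICM over ESC fell from 2296 to 776 with the compared groups alone. With array weights, 4146 genes in place of 2602 were called for female E13.5 over E11.5 PGC, and 1243 in place of 711 for female over male. With 1 array left out, counts ran from 1360 to 2401 for ICM over ESC (lowest without ESC replicate 1, and 1476 without ESC replicate 2), 2147 to 3404 for EGC over ESC (lowest without ESC replicate 2) and 389 to 817 for female over male (lowest without female replicate 3, and 414 without male replicate 3). Under the replicate block, Gata4 in EGC over ESC lost its call (0.31, adjusted p 0.0681), the dim Gata2 probe set 161820_f_at gained one in MEF over SGM (-0.46, adjusted p 0.0191), and no other GATA call changed. Groups of 2 arrays and signals without detection calls limit what can be said of dim members.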
